A study of Mus musculus with 8 samples.

Results

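The ADAMTS proteases described here are 10 genes, taken by symbol from the gene table of the series: Adamts1, Adamts2, Adamts4, Adamts5, Adamts6, Adamts7, Adamts9, Adamts10, Adamts12 and Adamts15. They are 10 of the 22274 genes listed, and all 10 were among the 13533 genes that passed a filter on low counts. RNA was sequenced from primary mouse cardiac fibroblasts, the matrix-producing cells of the heart kept in culture, in 4 libraries labelled GFP and 4 labelled OEIRF7. All 8 libraries came from cells given TGF-β, a cytokine that drives fibroblasts towards contractile, collagen-secreting myofibroblasts, so no library shows the cells without it. Cells of the GFP group are the vector control, described as an empty vector where the study reports its results. Those of the OEIRF7 group received a viral vector for overexpression of IRF7, an interferon regulatory factor. The genotype, age and sex of the mice and the number of cultures are not given in the labels, so p-values measure the spread between these libraries, which may be technical.

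ADAMTS proteins are secreted zinc metalloproteases that carry thrombospondin repeats. They are made as inactive precursors, cut by furin-type convertases, and bind the matrix next to the cell. Different members cut different matrix proteins: the hyalectanases cut versican, aggrecan and related proteoglycans, ADAMTS2 trims the amino-terminal propeptide of fibrillar procollagens, ADAMTS7 and ADAMTS12 can cut cartilage oligomeric matrix protein, and ADAMTS6 and ADAMTS10 act around fibrillin microfibrils. In the heart, such cleavage is known for its part in valve formation and in turnover of the interstitial matrix.

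What the members share in sequence is the active site. The stretch of 33 bases that encodes it is shown for each gene as spliced messenger RNA, written as DNA from 5′ to 3′, because it shows how closely related the catalytic centres are. Capitals mark the codons of the histidines that hold the zinc ion and of the glutamate that takes part in catalysis.
Adamts1: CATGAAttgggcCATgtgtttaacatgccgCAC
Adamts4: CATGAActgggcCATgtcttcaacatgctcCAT
Adamts5: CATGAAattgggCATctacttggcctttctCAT
Adamts9: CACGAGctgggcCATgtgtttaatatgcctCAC
Adamts15: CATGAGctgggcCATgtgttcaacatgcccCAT
Adamts2: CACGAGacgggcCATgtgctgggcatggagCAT
Adamts6: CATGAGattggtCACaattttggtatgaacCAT
Adamts10: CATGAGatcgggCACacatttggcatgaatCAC
Adamts7: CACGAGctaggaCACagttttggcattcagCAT
Adamts12: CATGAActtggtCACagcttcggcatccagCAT

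The stretches were found by a pattern that requires the amino acids of the capital codons and glycine or asparagine at the eighth codon. Each coding sequence held this pattern 1 time, and 12 of the 33 bases were the same in all 10 genes, in part because the pattern requires it. The eighth codon of the stretch was aac or aat in Adamts1, Adamts4, Adamts9 and Adamts15, and ggc or ggt in the other 6 genes, with the aggrecanase gene Adamts5 among the latter. Adamts4 and Adamts15 were the most alike, with 30 identical bases, whereas the chromosomal neighbours Adamts1 and Adamts5 shared 20. Adamts7 and Adamts12 shared 26 bases, as did Adamts6 and Adamts10. In every member the stretch ran across an exon junction, which fell after base 10 in Adamts1, Adamts4, Adamts5 and Adamts15 and after base 17 in the other 6.

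The check of the label came out opposite to its name. Mouse Irf7 lay between 92.0 and 147 CPM (counts scaled to the library total) in the GFP libraries and between 14.5 and 16.4 CPM in the libraries labelled OEIRF7, a log2 fold change of -2.96 (SE 0.121, edgeR's quasi-likelihood adjusted p = 7.7e-11). The sources differ on the virus and name both a human and a mouse IRF7 construct, so counts on the mouse gene may not measure the introduced one. The groups are therefore called by their labels, and each direction given here is that of the libraries labelled OEIRF7 against those labelled GFP. Total counts lay between 24454801 and 28658826 per library, and replicates differed by more than sampling noise, most in the pairs with OEIRF7 replicate 3 (chi-square per degree of freedom 6.21 to 8.67, against 2.69 to 5.91 in the other pairs).

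Of the 10 members, 4 rose and 5 fell in the libraries labelled OEIRF7, and Adamts15 did not pass the test (edgeR, adjusted p under 0.05 over all 13533 genes). The test called 58.9% of all genes, 29.0% as higher and 29.9% as lower, so the number of members called is to be read against a background in which most genes moved. No member rose past a log2 fold change of 1, which 4.66% of all genes did, and 2 members, Adamts5 and Adamts9, fell past -1, which 3.89% of all genes did. The CPM of the groups did not overlap for 9 members, as for 53.8% of all genes. The median log2 fold change was -0.495 over the members and 0.00153 over all tested genes. In such bulk samples, fewer cells of a type and less RNA per cell cannot be told apart.

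**Figure D1:**
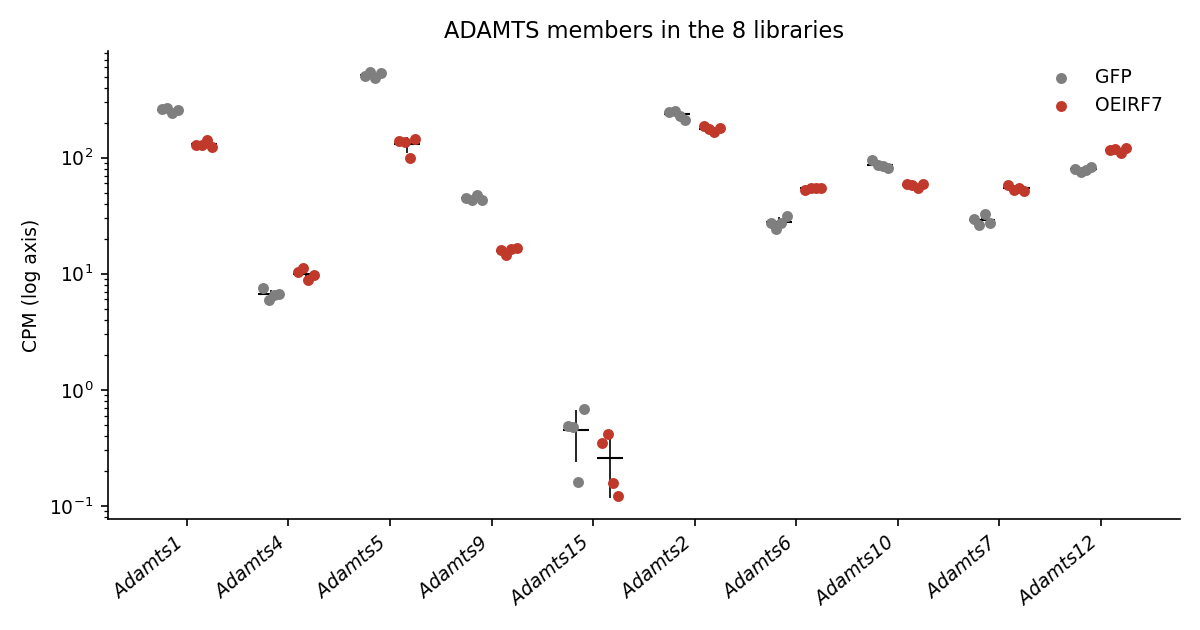
CPM of each member on a log axis in the 4 GFP (grey) and 4 OEIRF7 (red) libraries; black lines show the mean ± SD of each group. The points of the groups are apart for 9 members and overlap for Adamts15, which lies below 1 CPM in all 8 libraries.

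Among the hyalectanases, the widest fall was that of Adamts5, which encodes a major aggrecan-cleaving enzyme of cartilage (ENSMUSG00000022894, chr16:85856173-85901828, minus strand, GRCm38). Its CPM was 509, 547, 482 and 535 in GFP libraries 1 to 4 and 139, 136, 98.9 and 146 in OEIRF7 libraries 1 to 4. The highest OEIRF7 library was far below the lowest GFP library, and OEIRF7 replicate 3 was lowest of all. The log2 fold change was -1.99 (SE 0.0906, edgeR adjusted p = 1.9e-10), a level 25.1% of that in GFP, and 0.429% of all tested genes had a lower log2 fold change. Leaving out 1 library at a time moved it between -2.06 and -1.88. Its active-site stretch spans chr16:85878015-85887826, across exons 2 and 3.

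Adamts1, which encodes a versican- and aggrecan-cleaving enzyme induced by many stimuli, lies next to Adamts5 on the same strand (ENSMUSG00000022893, chr16:85793827-85803113), with 53.1 kb between the genes. It was measured at 263, 266, 242 and 257 CPM in GFP and at 129, 129, 143 and 123 CPM in OEIRF7. The groups were far apart, and OEIRF7 replicate 3, lowest for Adamts5, was highest for Adamts1. The log2 fold change was -0.97 (SE 0.0458, edgeR adjusted p = 2.6e-10), a fall to 50.9% of the GFP level. Its active-site stretch spans chr16:85799191-85799545, across exons 3 and 4.

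Adamts9, a versican-cleaving member that lies on chromosome 6 (ENSMUSG00000030022, chr6:92772699-92943492, minus strand), fell with little spread. Its values were 45.3, 43.4, 47.4 and 43.4 CPM in GFP and 16.0, 14.6, 16.2 and 16.5 CPM in OEIRF7. No GFP library came near the OEIRF7 range, and the log2 fold change of -1.50 (SE 0.0555, edgeR adjusted p = 3.0e-11) had the lowest p of all members. Annotated transcripts on the opposite strand overlap the gene, and the strand setting of the counting is not given in the sources used here. The active-site stretch spans chr6:92905285-92908493, across exons 8 and 9.

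Adamts4, which encodes another aggrecanase, moved the other way (ENSMUSG00000006403, chr1:171250421-171260637, plus strand). It was low, at 7.46, 5.97, 6.56 and 6.75 CPM in GFP and 10.4, 11.1, 8.80 and 9.73 CPM in OEIRF7. The groups did not overlap, but the gap between the highest GFP and the lowest OEIRF7 library was small. It rose by a log2 fold change of 0.58 (SE 0.0984, edgeR adjusted p = 0.00013). The active-site stretch lies at chr1:171253210-171253915, across exons 3 and 4.

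Adamts15, a versican-cleaving member (ENSMUSG00000033453, chr9:30899155-30922452, minus strand), was close to the limit of detection. There were 13, 12, 4 and 18 counts in the GFP libraries and 9, 12, 4 and 3 in the OEIRF7 libraries. The ranges overlapped, and the log2 fold change of -0.77 had a 95% interval from -1.79 to 0.24 (edgeR adjusted p = 0.18). A change was not detectable at this depth, and the interval includes both no difference and a fall as wide as that of Adamts9. The active-site stretch spans chr9:30911255-30911690, across exons 2 and 3.

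The procollagen N-propeptidase gene Adamts2, whose loss causes a fragile-skin form of Ehlers-Danlos syndrome, lies on chromosome 11 (ENSMUSG00000036545, chr11:50602084-50807573, plus strand). Its level was 249, 255, 227 and 212 CPM in GFP and 188, 178, 166 and 180 CPM in OEIRF7. All OEIRF7 libraries were below all GFP libraries, with GFP replicate 4 the nearest. It fell by 0.40 on the log2 scale (SE 0.0548, edgeR adjusted p = 1.7e-05), the smallest called change among the members. Noncoding transcripts are annotated on the opposite strand within it. Its active-site stretch spans chr11:50775403-50776134, across exons 7 and 8.

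The microfibril-associated pair split in direction. Adamts6 (ENSMUSG00000046169, chr13:104287835-104496695, plus strand) was at 27.2, 24.4, 27.6 and 31.7 CPM in GFP and at 52.8, 54.9, 55.2 and 55.1 CPM in OEIRF7. Its OEIRF7 values were close together and well above all GFP values, with a log2 fold change of 0.97 (SE 0.0627, edgeR adjusted p = 7.1e-09), the widest rise among the members. Adamts10, which is mutated in Weill-Marchesani syndrome, a disorder of short stature and lens dislocation (ENSMUSG00000024299, chr17:33524204-33553782, plus strand), was at 95.1, 85.7, 85.0 and 82.1 CPM in GFP and at 59.5, 58.0, 55.1 and 59.2 CPM in OEIRF7. It fell in all 4 OEIRF7 libraries below the GFP range, by 0.59 on the log2 scale (SE 0.0476, edgeR adjusted p = 8.3e-08). Their active-site stretches span chr13:104352847-104366809 and chr17:33538157-33538279, each across exons 9 and 10.

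The COMP-cleaving pair, Adamts7 and Adamts12, rose together. Adamts7 (ENSMUSG00000032363, chr9:90163069-90208071, plus strand), a gene in a region linked to human coronary artery disease, was at 29.4, 26.0, 32.6 and 27.5 CPM in GFP and at 58.3, 52.8, 54.6 and 51.7 CPM in OEIRF7. The groups were far apart, and the log2 fold change was 0.91 (SE 0.0641, edgeR adjusted p = 1.8e-08). Adamts7 overlaps Tbc1d2b on the opposite strand, which also rose (log2 fold change 0.51, SE 0.0460, edgeR adjusted p = 2.5e-07), and without the strand setting the reads of the overlap cannot be told apart. Adamts12 (ENSMUSG00000047497, chr15:11064790-11349231, plus strand), with no annotated gene overlapping it, was at 80.6, 75.4, 78.8 and 83.1 CPM in GFP and at 117, 120, 109 and 121 CPM in OEIRF7. It rose by a log2 fold change of 0.55 (SE 0.0419, edgeR adjusted p = 3.8e-08). The active-site stretches span chr9:90179456-90180640 and chr15:11241529-11255564, each across exons 7 and 8.

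For each of the 9 called members, the two-sided exact permutation test on log2 CPM values gave p = 0.0286, the smallest that 4 libraries against 4 can give, and for Adamts15 the exact permutation p was 0.171. The directions were mixed within the hyalectanases and within the group sharing a codon at the active site. The hyalectanases held 3 falls, 1 rise and 1 gene that was not called, and the group with aac or aat at the eighth codon held falls of Adamts1 and Adamts9 beside the rise of Adamts4.

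Levels of different genes were compared per length, in FPKM (fragments scaled to transcript length and library size). In GFP the mean FPKM was 56.6 for Adamts1, 47.5 for Adamts5, 34.3 for Adamts2, 23.2 for Adamts10 and 9.17 for Adamts12, with no overlap between neighbours in this order. Adamts9 at 5.73 and Adamts7 at 5.47 FPKM overlapped over libraries, and Adamts6 (4.31), Adamts4 (1.52) and Adamts15 (0.075) followed. In OEIRF7 Adamts1 was still first at 30.1 FPKM, ahead of Adamts2 at 26.8, Adamts10 at 16.1, Adamts12 at 13.7 and Adamts5 at 12.2 FPKM. There the ranges of Adamts12 and Adamts5, and of Adamts5 and Adamts7 (10.5 FPKM), overlapped, followed by Adamts6 at 8.70 FPKM. Adamts4 at 2.32 and Adamts9 at 2.01 FPKM also overlapped in OEIRF7, and Adamts15 was last at 0.045 FPKM. Adamts5 thus went from the second to the fifth place.

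The summed FPKM of the 10 members was 188 ± 5.57 (SD, n = 4) in GFP and 122 ± 3.24 (SD, n = 4) in OEIRF7, and no library of either group reached the range of the other. The 5 hyalectanases made up 59.3% ± 1.29 (SD, n = 4) of this sum in GFP and 38.1% ± 0.606 (SD, n = 4) in OEIRF7. Adamts7 and Adamts12 together went from 7.80% ± 0.546 to 19.8% ± 0.295 of the sum (SD, n = 4 each). The ratio of Adamts5 to Adamts1, both as FPKM, was 0.808, 0.861, 0.819 and 0.873 in GFP libraries 1 to 4 and 0.449, 0.427, 0.284 and 0.474 in OEIRF7 libraries 1 to 4, so the neighbouring genes did not fall in proportion. These shares are shares of RNA per length and say nothing of enzyme activity.

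**Figure D2:**
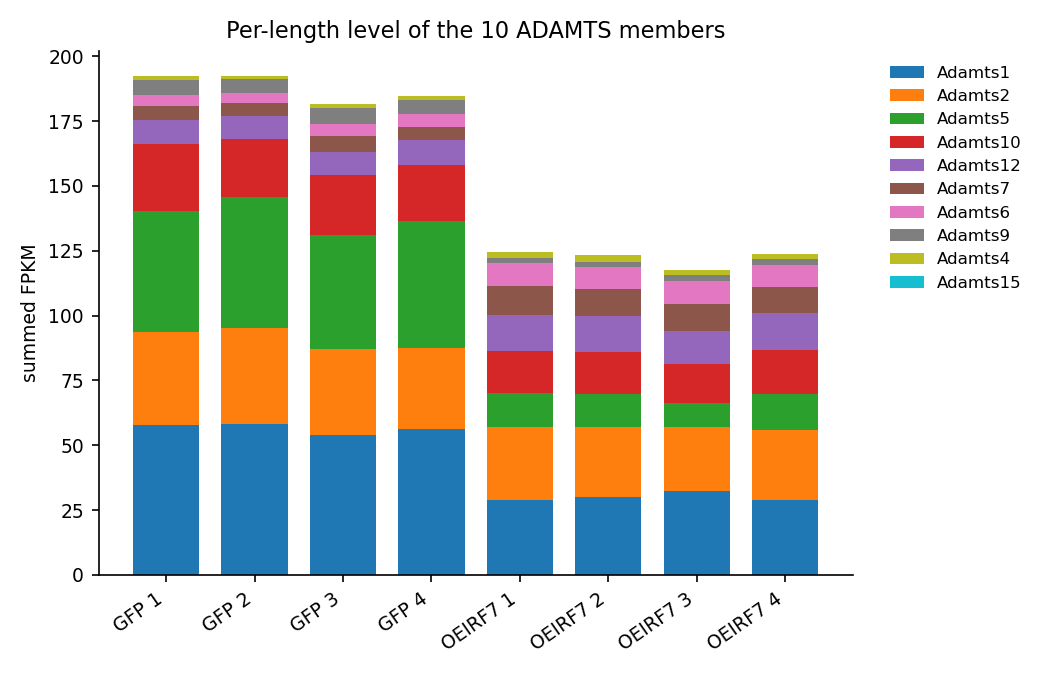
Summed FPKM of the 10 members in each library, with the height of a segment giving the FPKM of 1 gene. The sum lies at 181 to 193 in the GFP libraries and at 118 to 125 in the OEIRF7 libraries, with the Adamts5 segment the most reduced.

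Of the other 9 ADAMTS genes, Adamts3, Adamts8 and Adamts14 passed the filter on low counts, Adamts13, Adamts16, Adamts17, Adamts19 and Adamts20 did not, and Adamts18 had no count in any library. Adamts8, another hyalectanase-type gene, was at 5.14 to 6.81 CPM in GFP and 6.91 to 11.4 CPM in OEIRF7. It rose by a log2 fold change of 0.69 (SE 0.138, edgeR adjusted p = 0.00057), although OEIRF7 replicate 3 was barely above the GFP range. The procollagen N-propeptidase genes Adamts3 and Adamts14, relatives of Adamts2, were not called, with log2 fold changes of 0.76 (edgeR adjusted p = 0.14) and -0.34 (edgeR adjusted p = 0.070).

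ADAMTS-like proteins resemble the non-catalytic part of the family and have no protease domain. The 6 such genes listed here, Adamtsl1 to Adamtsl5 and Papln, were all tested, of which 1 rose, 3 fell and 2 were not called. Adamtsl3 went from between 163 and 178 CPM in GFP to between 49.6 and 62.0 CPM in OEIRF7 (log2 fold change -1.57, SE 0.0559, edgeR adjusted p = 2.1e-11). Adamtsl2, whose protein binds fibrillin and latent TGF-β binding protein and is mutated in geleophysic dysplasia, went from between 55.9 and 78.0 CPM to between 19.9 and 28.1 CPM (log2 fold change -1.46, edgeR adjusted p = 1.4e-08). These falls were close in size to that of Adamts9. Adamtsl4 fell by 0.66 on the log2 scale, and Adamtsl5 rose by a log2 fold change of 0.15, while Adamtsl1 (0.06) and Papln (0.71) did not pass the test.

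**Figure D3:**
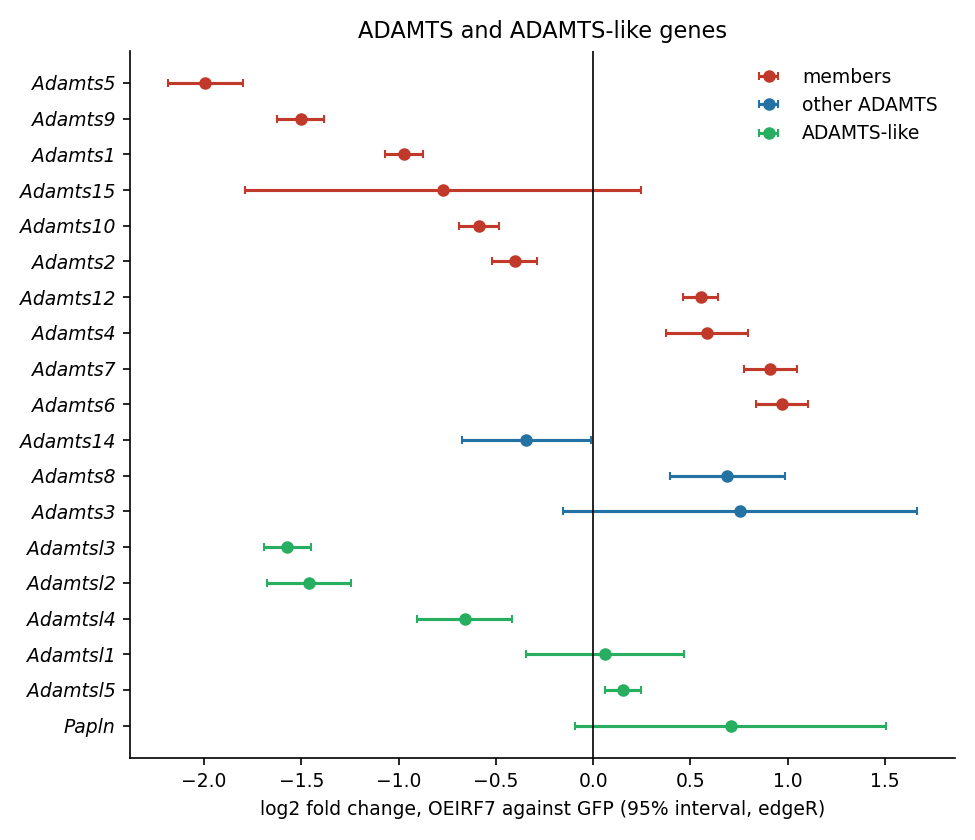
Log2 fold change of OEIRF7 against GFP for the members (red), the other tested ADAMTS genes (blue) and the listed ADAMTS-like genes (green). Bars show the 95% interval derived from edgeR's test statistic. Adamts5 lies lowest at -1.99 and Adamts6 highest among the members at 0.97, and the intervals of Adamts15, Adamts3, Adamtsl1 and Papln cross 0.

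The members lie on 8 chromosomes, and the nearest tested genes on either side were looked up for each. Next to Adamts1, on the side away from Adamts5, lay Cyyr1 at 240429 bases, which was low and fell by 0.68 on the log2 scale (edgeR adjusted p = 0.0042). Beyond Adamts5 the nearest tested gene, N6amt1, lay 1450 kb away and was not called (log2 fold change -0.17, edgeR adjusted p = 0.062). Within 1000 kb of the centre of the pair, App, the amyloid precursor gene, fell by 0.18 and Gabpa was at 0.00 on the log2 scale, so the falls of Adamts1 and Adamts5 were the widest of the tested genes there. Adamts15 and Adamts8 lie 20.1 kb apart on opposite strands, with log2 fold changes of -0.77 (not called) and 0.69. Of the other tested genes within 1000 kb of the centre of that pair, 5 rose, by log2 fold changes from 0.13 in Snx19, the nearest on the side of Adamts15, to 0.35 in Zbtb44, and St14 was not called.

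Around the remaining members, neighbours moved with and against them. Beside Adamts2, which fell, Zfp354c at 3.51 kb fell by 0.45 on the log2 scale, and Rufy1 on the other side was not called (-0.14, edgeR adjusted p = 0.063). Beside Adamts4, which rose, Fcer1g, a signalling chain of Fc receptors in myeloid cells that lies 16.1 kb away, rose by 0.53, and B4galt3 was not called (0.15, edgeR adjusted p = 0.053). Adamts6, which also rose, lay between Cenpk, which was not called (-0.39, edgeR adjusted p = 0.087), and Cwc27, which rose by 0.22. Next to Adamts7, Morf4l1 fell by 0.46 on the log2 scale and Plscr1, 2040 kb away, rose by 0.22, while Adamts7 rose by 0.91. Both Prickle2 and Magi1, on the 2 sides of Adamts9, fell, by 0.12 and 0.23, less than Adamts9 did. Adamts10, which fell, lay between Myo1f at 1.92 kb, which fell by 0.32, and Zfp101, which was not called (-0.29, edgeR adjusted p = 0.055). On the 2 sides of Adamts12, which rose by 0.55, Rxfp3 fell by 1.02 from a level near 1 CPM and Tars rose by 0.17.

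**Figure D4:**
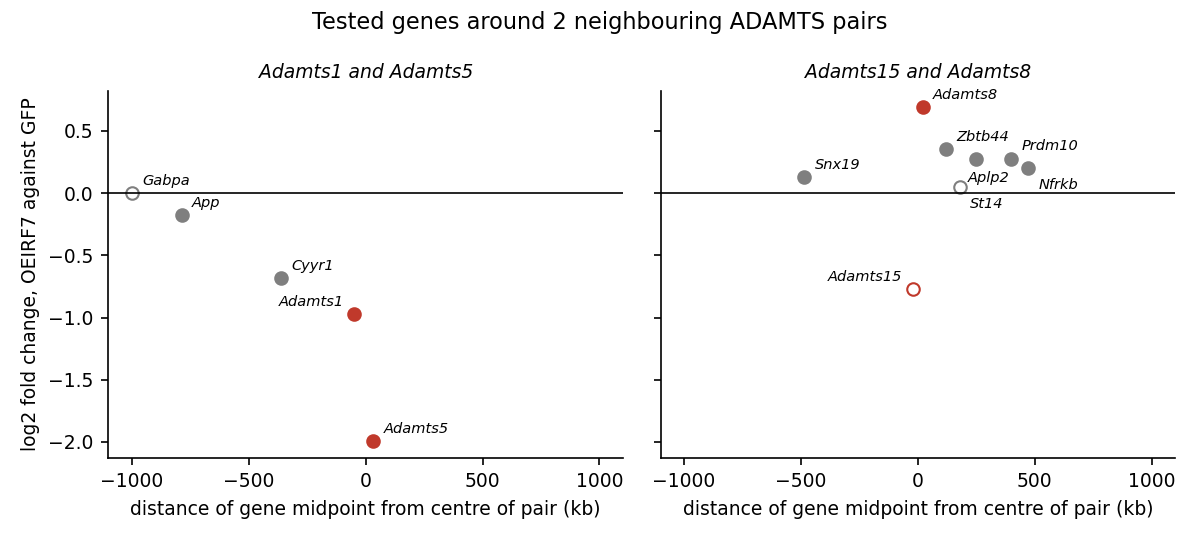
Log2 fold change of OEIRF7 against GFP of the tested genes within 1000 kb of the Adamts1 and Adamts5 pair (left) and the Adamts15 and Adamts8 pair (right), plotted by distance of the gene midpoint from the centre of the pair; filled points passed edgeR's test (adjusted p under 0.05) and ADAMTS genes are red. Adamts1 and Adamts5 lie lowest on the left, and Adamts15 and Adamts8 lie on opposite sides of 0 on the right.

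Promoter sequences, from 250 bases before to 50 after the start, were found for 4 of the 10 members (Adamts1, Adamts2, Adamts9 and Adamts12) in RefSeq on GRCm38.p6. On both strands they were searched for GAAA followed by any 2 bases and GAAA, the core bound by interferon regulatory factors, and for TGANTCA, the site bound by AP-1. None of the 4 held either, against 3.44% and 7.81% of 32851 promoters of this length, which says only that these letters are not in these windows.

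Transcripts of the substrate genes moved in both directions, and no protein was measured in these libraries. Of 9 tested proteoglycan substrates, 2 rose and 5 fell (median log2 fold change -0.28, against 0.00153 over all tested genes). Versican, Vcan, the substrate shared by most hyalectanases, was at 174 to 227 CPM in GFP and at 382 to 411 CPM in OEIRF7, and it rose (log2 fold change 0.95, SE 0.0606, edgeR adjusted p = 6.2e-09). Of the hyalectanase genes among the members, Adamts1, Adamts5 and Adamts9 fell in the same libraries. Adamts4 rose (log2 fold change 0.58) and Adamts15 was not called, and outside the members Adamts8 rose (log2 fold change 0.69). Aggrecan, Acan, was low in these fibroblasts, at 3.20 to 4.40 CPM in GFP, and fell to 0.973 to 1.32 CPM (log2 fold change -1.75, SE 0.175, edgeR adjusted p = 7.1e-07). Fibromodulin, Fmod, a small collagen-binding proteoglycan, fell by 2.14 on the log2 scale, from between 64.4 and 90.7 CPM to between 15.6 and 18.8 CPM.

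All 10 tested glycoprotein substrates passed the test, 5 rising and 5 falling, with a median log2 fold change of 0.08. Calls in this and the other lists are to be read against the 58.9% of all tested genes that passed. Comp, the namesake substrate of Adamts7 and Adamts12, was low and fell by 1.20 on the log2 scale (SE 0.161, edgeR adjusted p = 1.4e-05), opposite to both enzymes. Thbs2, thrombospondin-2, fell by 1.44, from between 658 and 761 CPM to between 233 and 289 CPM. Fbn1, the fibrillin gene that microfibrils are built from, was abundant and fell by 0.20 on the log2 scale (SE 0.0229, edgeR adjusted p = 3.4e-06), whereas Adamts6 rose and Adamts10 fell. Of 6 collagen substrates 5 fell, with a median of -0.52. Col1a1, the main type I collagen chain and a substrate of ADAMTS2, fell by 0.16 (edgeR adjusted p = 0.00052) beside the fall of 0.40 in Adamts2, and Col2a1, at under 2.4 CPM, fell by 1.20 on the log2 scale.

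Among the inhibitors and clearance genes, 2 of 7 rose and 3 fell (median log2 fold change -0.21). Timp3, the tissue inhibitor that blocks several ADAMTS enzymes, fell by 0.35 on the log2 scale (SE 0.0536, edgeR adjusted p = 5.2e-05) and stayed abundant, with a mean of 403 FPKM in OEIRF7. Lrp1, the receptor that takes up secreted ADAMTS5, rose by a log2 fold change of 0.20 (SE 0.0295, edgeR adjusted p = 3.1e-05), whereas the related Lrp2, at under 10 CPM, fell by 1.32. Of 6 genes of maturation and glycosylation 2 rose and 2 fell (median 0.06). The convertase gene Furin rose by a log2 fold change of 0.15 (edgeR adjusted p = 0.020), with overlapping groups, and the related Pcsk6 fell by 1.10, from between 211 and 235 CPM to between 102 and 108 CPM. Of the enzymes that put fucose and glucose on thrombospondin repeats, Pofut2 was at 0.02 (edgeR adjusted p = 0.63) and B3glct rose by 0.24 on the log2 scale (edgeR adjusted p = 0.00054).

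Hyaluronan is the polymer that versican and aggrecan bind. Of 10 tested hyaluronan partners 4 rose and 4 fell (median log2 fold change 0.03). Cemip, which encodes a protein for hyaluronan breakdown, fell by 2.99 on the log2 scale (SE 0.127, edgeR adjusted p = 1.0e-10). Hapln1, the link protein that fastens these proteoglycans to hyaluronan, was low and fell by 2.09, and Cd44, the hyaluronan receptor, rose by a log2 fold change of 1.44 (SE 0.0467, edgeR adjusted p = 9.0e-12). Among the 10 tested ADAM paralogs, membrane-bound relatives of the family, 4 rose and 3 fell, none past a log2 fold change of 1 in either direction (median 0.01).

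**Figure D5:**
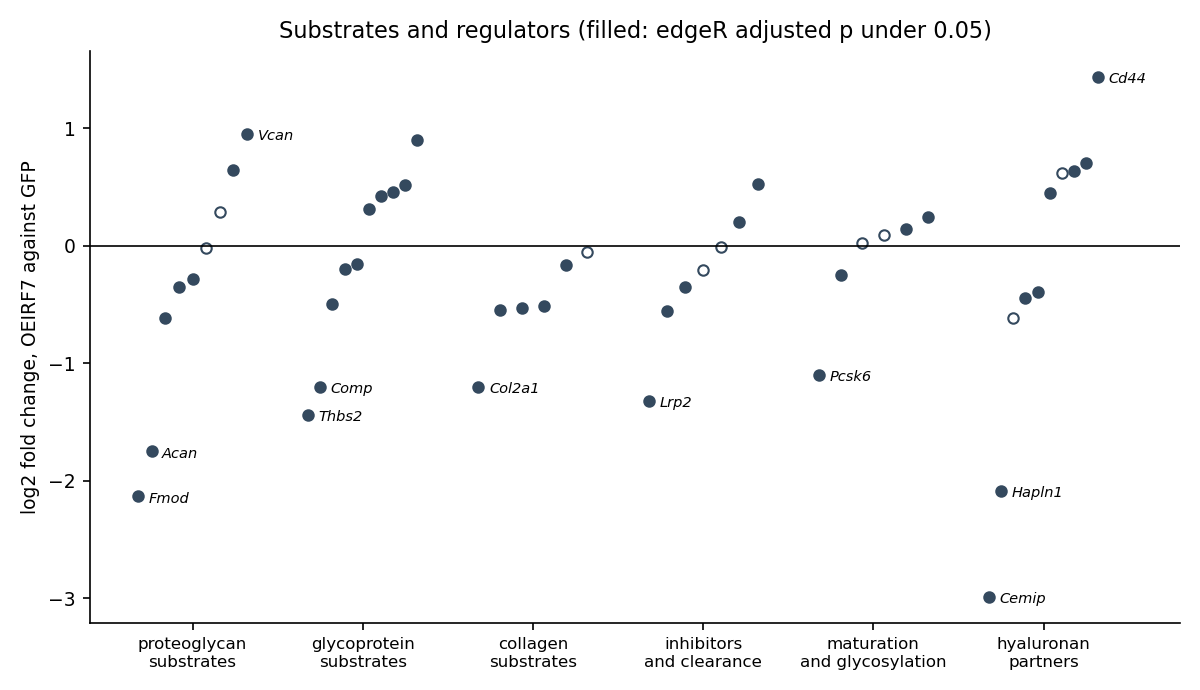
Log2 fold change of OEIRF7 against GFP for each tested gene of the substrate and regulator lists, with filled points past edgeR's test (adjusted p under 0.05) and open points not. Vcan at 0.95 and Acan at -1.75 lie far apart among the proteoglycans, and the collagens lie at or below 0.

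Markers of cell types and states moved between the same libraries. Of 12 myofibroblast markers 10 fell and 1 rose, with a median log2 fold change of -0.58. Their summed level was 31980 to 33890 CPM in GFP and 27180 to 29350 CPM in OEIRF7. Col1a1, Col1a2 and Col3a1 are in this list and also in that of the fibroblasts. Of 10 fibroblast markers 5 fell and 2 rose (median log2 fold change -0.12), with sums of 13560 to 14010 and 12610 to 13610 CPM. These sums were high in both groups, but a sum is carried by its most abundant genes. It does not show that each marker was abundant. Of 10 macrophage markers 6 rose and none fell, with sums of 299 to 356 CPM in GFP and 387 to 430 CPM in OEIRF7, which did not overlap. Epicardial markers, of which 3 of 8 rose and 3 fell, summed to 244 to 256 CPM in GFP and 185 to 201 CPM in OEIRF7. Endothelial markers, of which 4 of 10 rose and 1 fell, summed to 246 to 257 and 250.3 to 277 CPM. Mural markers, of which 3 of 8 tested rose and 4 fell, summed to 1466 to 1582 and 1326 to 1477 CPM. Of 11 cardiomyocyte markers 1 passed the filter on low counts, the sums lay under 14 CPM in all libraries, and Myl3 was at 0. The part of these other cells and states in the ADAMTS changes was not tested.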

How the data were processed

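Primary mouse cardiac fibroblasts given TGF-β were measured by RNA-seq in 4 GFP and 4 OEIRF7 libraries. The deposited counts are raw numbers of reads per gene, which the authors made by trimming, by mapping to GRCm38 using HISAT2 and by HTSeq-count. They also deposited FPKM from Cufflinks, normalized for length and depth and rounded, which makes values of low genes such as Adamts15 coarse. Tool versions and the strand setting of the counting are not given in the sources used here. The authors' own group means, log2 ratios, p-values and FDR in the table were not used. Symbols in which letters had been replaced by GFP were restored by Ensembl identifier (22219 of 22274 matched GENCODE M21).

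The count tests ran in edgeR 4.0.16 under R 4.3.3 (filterByExpr, TMM scaling, glmQLFit and glmQLFTest without covariates) and Benjamini-Hochberg adjustment over 13533 genes. CPM used TMM-scaled library sizes, with scaling factors from 0.989 to 1.01. Exact two-sided permutation tests were run with scipy 1.17.1. Coding sequences and coordinates came from GENCODE M21 (GRCm38), taking for each gene the longest coding sequence that held the active-site pattern, and promoters from RefSeq. The scripts were tested on simulated data. With 24454801 to 28658826 counts per library, genes under about 1 CPM rest on few counts.

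All 10 members, every tested gene of the ADAMTS and ADAMTS-like lists and the nearest tested gene on each side of a member were named. Of the substrate, inhibitor, maturation, ADAM and hyaluronan lists, Vcan, Acan, Comp, Fbn1, Col1a1, Timp3, Lrp1, Furin, Pofut2, B3glct and the genes past an adjusted p of 0.05 and a log2 fold change of 1 in either direction were named. Marker lists are given by their counts and sums, and those of fibroblasts and myofibroblasts also by their medians and shared genes. The genes within 1000 kb of a pair and the overlapping gene Tbc1d2b were chosen after their values were seen. Some results are not reported here. Members and lists were chosen with earlier results of these data known. The alternatives tried were upper-quartile scaling or none, other count filters, DESeq2 1.42.0, a replicate block, leaving out each library, and limma 3.58.1 on log2(FPKM + 1) and log2(FPKM + 0.1).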

Additional observations from a re-analysis of the deposited data

Results flagged for a closer look

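In 1 of 20 groups of 4 libraries examined, 10 members in 2 groups, 1 library lay far from the others by Dixon's ratio, about what chance gives at 1 in 20. For Adamts6 in OEIRF7, replicate 1 was at 52.8 CPM against 54.9 to 55.2 CPM in the other 3, a ratio of 0.891 that is above Dixon's critical value for 4 samples. The spread of these 4 libraries is small, and all lay above the GFP range of 24.4 to 31.7 CPM.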

How the results depend on the processing

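Of the members, 4 were higher and 5 lower in OEIRF7 under each of the 16 alternatives, including DESeq2, other scalings and filters, limma on log2(FPKM + 1) and log2(FPKM + 0.1), and the 8 fits that left out 1 library. All 157 fold changes of members under an alternative kept their direction and their side of the adjusted p of 0.05. The line at a log2 fold change of 1 was crossed in some fits. Adamts6 was at 1.04 without GFP replicate 4 and at 1.003 in limma on log2(FPKM + 0.1), and Adamts1 was at -1.02 without OEIRF7 replicate 3. Among those fits with 1 library left out, the log2 fold change of Adamts4 ranged from 0.53 to 0.64 and that of Adamts15 from -1.10 to -0.51 (edgeR adjusted p from 0.059 to 0.43 over its alternatives). Adamts15 gave no value with at least 10 counts in every library or in the limma fits. Library numbers are shared by the groups, but nothing in the labels says that a number marks a shared culture. Deviations of same-numbered libraries correlated at 0.079, 0.095, 0.138 and 0.104, and each of the 4 GFP libraries correlated best with its own number. With the replicate block, 4 members were higher and 5 lower, and 4057 genes were higher and 4154 lower, against 3924 and 4045 without it. Depth limits Adamts15, with 3 to 18 counts per library, and leaves the other 9 members with at least 149 counts.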
